A study of Mus musculus with 2 samples.

Results

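Glycosaminoglycan synthesis was examined in 3T3-L1 cells, a clonal mouse fibroblast line whose preadipocytes become fat cells under hormonal induction. The members were 55 of 18193 genes on the array, with 101 probe sets, each mapped to that gene alone. Most make, modify or carry heparan sulfate, chondroitin or dermatan sulfate, or make hyaluronan. Another 7 are sulfotransferases of other chains. The rule reads gene symbols alone: Ext and Extl, Ndst, Glce, Hs2st, Hs3st, Hs6st, Chst, Chsy, Chpf, Dse, Has, Gpc, Sdc, Sulf, Xylt and Ugdh. Preadipocytes were transfected with an siRNA against Phf21a, which encodes BHC80, or with the control siRNA siGL3. Adipogenic induction with insulin, dexamethasone and 3-isobutyl-1-methylxanthine followed 24 h later in both groups, and RNA was taken after a further 24 h. Both groups were grown in DMEM with 25 mM glucose and 10% FBS. There was 1 Affymetrix array in each group, so differences have no replicate check and were not tested. How many cultures went into an array is not stated in the labels.

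Glycosaminoglycans are long sugar chains built in the Golgi. For heparan and chondroitin sulfate, a xylosyltransferase starts the chain on a core protein, polymerases extend it, and sulfotransferases mark it with sulfate at defined positions, which sets the growth factors, chemokines and enzymes it can bind. Hyaluronan differs, being made at the plasma membrane without a core protein and without sulfate. Preadipocytes surround themselves with chondroitin sulfate and hyaluronan, and this matrix is remodelled as they turn into adipocytes.

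Promoter windows are shown for 4 members that the results turn on: Sdc3, the highest; Chsy1, the lowest bright member; and Hs2st1 and Hs6st1, heparan sulfotransferases that differed in opposite directions. Each is the RefSeq window on GRCm38.p6 from 250 bases before to 50 after the annotated start, written along the gene's strand. They lie at chr4:130792287-130792586 (plus strand, Sdc3), chr7:66109242-66109541 (plus, Chsy1), chr3:144570167-144570466 (minus, Hs2st1) and chr1:36068150-36068449 (plus, Hs6st1). Capitals mark the letters of the motifs searched on both strands, the GC box (GGGCGG), the CCAAT box (CCAAT) and the E-box (CACGTG); none of these motifs overlapped another here.
Sdc3: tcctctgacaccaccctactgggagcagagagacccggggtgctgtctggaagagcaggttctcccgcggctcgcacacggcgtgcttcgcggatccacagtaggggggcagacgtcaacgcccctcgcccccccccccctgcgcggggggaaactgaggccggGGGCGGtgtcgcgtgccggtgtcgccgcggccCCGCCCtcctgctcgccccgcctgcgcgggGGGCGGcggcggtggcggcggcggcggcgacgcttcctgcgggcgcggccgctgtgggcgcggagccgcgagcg
Chsy1: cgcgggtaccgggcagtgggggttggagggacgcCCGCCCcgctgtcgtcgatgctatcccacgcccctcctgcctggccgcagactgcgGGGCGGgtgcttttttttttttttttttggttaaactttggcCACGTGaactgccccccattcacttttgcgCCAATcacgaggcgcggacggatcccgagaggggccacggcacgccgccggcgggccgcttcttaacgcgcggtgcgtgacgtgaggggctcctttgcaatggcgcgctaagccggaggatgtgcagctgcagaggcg
Hs2st1: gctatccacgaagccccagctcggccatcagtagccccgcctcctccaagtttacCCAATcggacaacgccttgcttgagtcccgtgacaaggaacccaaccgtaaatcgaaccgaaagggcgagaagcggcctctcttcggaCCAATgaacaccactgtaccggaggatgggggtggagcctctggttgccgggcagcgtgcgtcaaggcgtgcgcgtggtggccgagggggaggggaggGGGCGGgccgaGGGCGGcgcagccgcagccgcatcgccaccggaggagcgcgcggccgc
Hs6st1: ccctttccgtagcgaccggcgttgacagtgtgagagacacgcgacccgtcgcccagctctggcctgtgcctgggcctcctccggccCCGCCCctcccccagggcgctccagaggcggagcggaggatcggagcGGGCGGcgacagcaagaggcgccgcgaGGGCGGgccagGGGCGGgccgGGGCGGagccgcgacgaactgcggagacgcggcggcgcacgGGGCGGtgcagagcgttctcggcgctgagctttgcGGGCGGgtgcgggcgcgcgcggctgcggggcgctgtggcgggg

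The window of Sdc3 held 3 GC boxes and no CCAAT box, and that of Hs6st1 held 7 GC boxes and no CCAAT box. Chsy1 had 2 GC boxes, 1 CCAAT box and 1 E-box, and Hs2st1 had 2 GC boxes and 2 CCAAT boxes. The letters of the cAMP response element (TGACGTCA) and the TATA box (TATAAA) were in none of the 4 windows. The G and C content was 77.7% for Sdc3, 65.3% for Chsy1, 67.7% for Hs2st1 and 78.0% for Hs6st1. Its median was 61% over the windows of all detected genes and 66.5% over those of detected members. Of 32851 windows in the table, 35.7% held a GC box, 37.4% a CCAAT box, 7.15% an E-box, 1.79% a cAMP response element and 13.6% a TATA box. Of the windows of detected genes alone, 38% held a CCAAT box, 9.87% an E-box, 3.02% a cAMP response element and 7.19% a TATA box. Windows were found for 26 of the 32 members detected. Of their 30 windows 22 held a GC box (73.3%), against 62.7% of the windows of all detected genes. The 4 windows shown, from members on both sides of 0, all exceeded the median G and C content of detected genes. A match of letters here is only a description.

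Signals are MAS5 intensities on a linear scale, and each log2 ratio is the Phf21a siRNA array over the control array. Detection required a signal of at least 51.3, the median of all signals, on 1 array or both, and the brightest detected probe set stands for its gene. Probe sets with the suffix _x_at were used only where no other was detected. The value after ± is a local spread, which describes the scatter of log2 ratios among the 1000 detected genes closest in signal. It covers the central 68% of those genes and any true changes among them, and it is not an error between cultures. With 1 array a group, "higher" and "lower" name only the order of the arrays. Below, the control signal comes first. Phf21a itself had signals of 768 and 306 (log2 ratio -1.33 ± 0.53). Its other detected probe sets were at -1.35 and -0.73. Markers of the adipocyte lineage and of mesenchyme were bright, such as Fabp4 (3502 and 5849), Pparg (512 and 814) and Col3a1 (14801 and 12972). Of 9 such markers detected 6 were below 0, among them the preadipocyte marker Dlk1 (12290 and 5940, 2.07-fold lower), and the list's summed signals were 51111 and 45192. The part of this difference in the results was not tested. Adipoq and Cebpa, which mark later adipocytes, were under the detection limit on both arrays. Endothelial markers were undetected in 6 of 6 cases. Of 8 leukocyte markers 5 were detected, with summed signals of 835 and 1524 for the list, though Ptprc, Tyrobp and Cd52 were not. Detected too were 2 of 4 epithelial, 2 of 4 skeletal muscle and 2 of 3 neuron markers. The summed signals of these lists were 235 and 142, 252 and 172, and 435 and 230. The part of any such cells in the results was not tested. In these bulk samples fewer cells of a type and less RNA per cell cannot be told apart.

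Of the 55 members 32 were detected (58.2%, against 62.1% of all genes), with 57 probe sets. Their log2 ratios leaned below 0. The median was -0.27 against 0.03 over all 11301 detected genes, and 24 of the 32 (75%) lay below 0 against 47.8% of all. At least 1.5-fold lower were 7 members (21.9%, against 13.9% of all detected genes), and 3 were at least 1.5-fold higher (9.38%, against 15.1%). At 2-fold 2 were lower (6.25%, against 5.44%) and 1 was higher (3.12%, against 5.66%), so the shares past 2-fold were near those of all genes. Scaling the arrays to their poly-A or hybridisation control RNAs moved the median of all genes to -0.70 or -0.20 and the members' split to 1 higher and 24 lower, or to 2 higher and 13 lower. Of all genes, 2.84% passed 1.5-fold on the high side and 59.2% on the low side under poly-A scaling, and 8.91% and 23.3% did under hybridisation scaling. Each of these scalings adds 1 constant to every log2 ratio, except where a signal falls under 12.9, the floor to which low signals were raised. By this construction the difference of -0.30 between the members' median and that of all genes stayed the same under them.

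**Figure D1:**
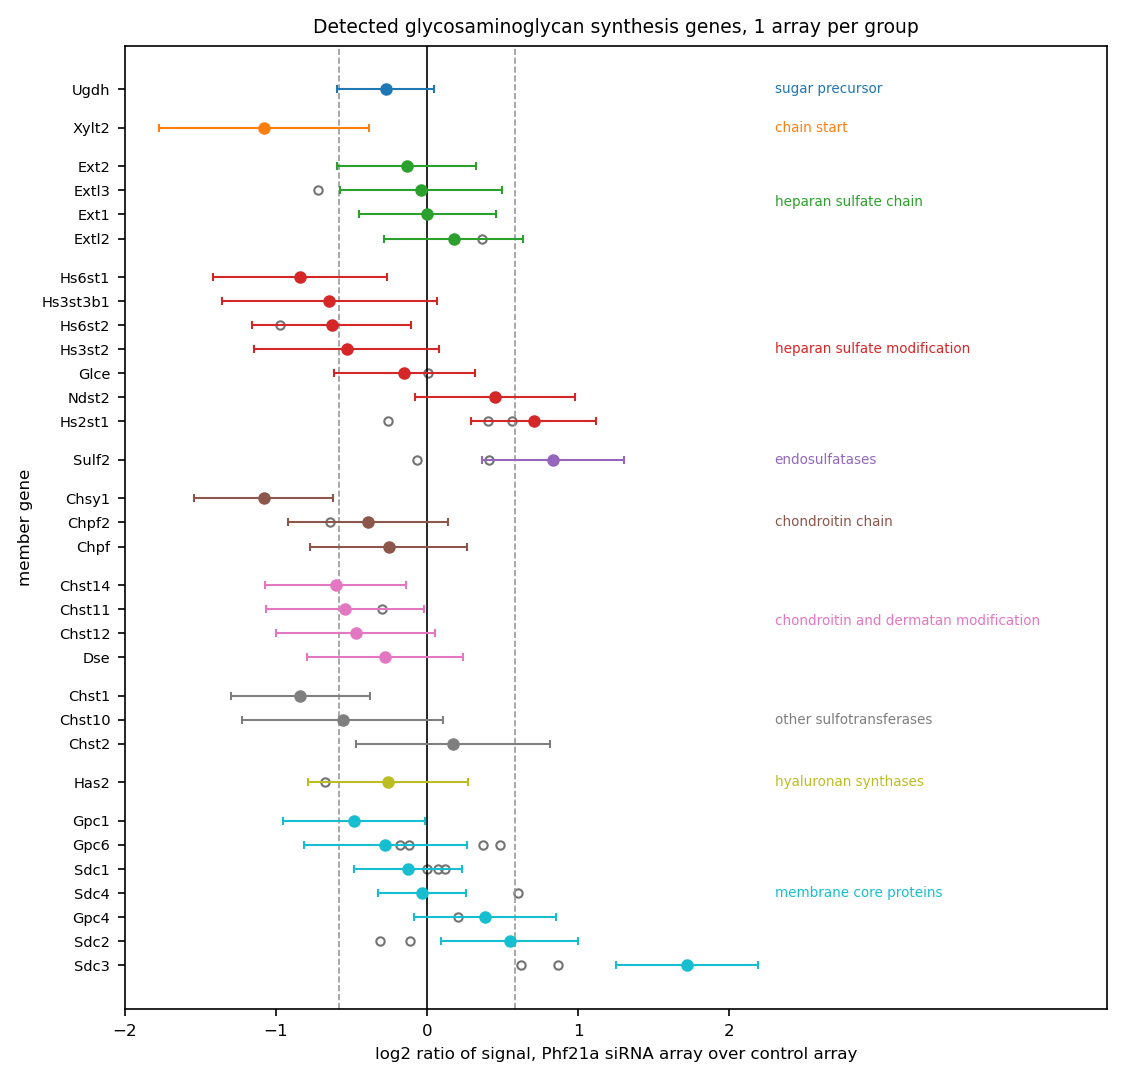
Log2 ratio of each detected member (x axis) by gene (y axis), grouped by role. Filled points are the probe set used, with its local spread as a bar. It is the brightest, leaving out _x_at where another was detected. Open points are the gene's other detected probe sets, and dashed lines mark 1.5-fold. All 7 detected genes of the chondroitin groups lie left of 0, while Sdc3 at 1.72 stands farthest to the right.

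The members furthest from 0 were few. Those at least 1.5-fold lower were Xylt2, Chsy1, Hs6st1, Chst1, Hs3st3b1, Hs6st2 and Chst14, and those higher were Sdc3, Sulf2 and Hs2st1. Of these 10, all but Hs3st3b1 lay outside their local spread, which their choice by size made likely. Of all 32 detected members 12 did (37.5%), against 33.0% of all detected genes. Close to the 1.5-fold line, which is 0.58 on the log2 scale, Chst14 was just past it at -0.61, and Chst10 (-0.56), Sdc2 (0.55) and Chst11 (-0.54) fell just short. The other 22 detected members lay within 1.5-fold. Among all genes of like signal such values were common for most members: 4.6% of the 1000 nearest genes were at least as low as Chst1, 6.3% as low as Hs6st1 and 9.1% as low as Chst14. Chsy1 was matched or passed on the low side by 1.9% of its nearest genes, and Sdc3 on the high side by 0.5%.

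**Figure D2:**
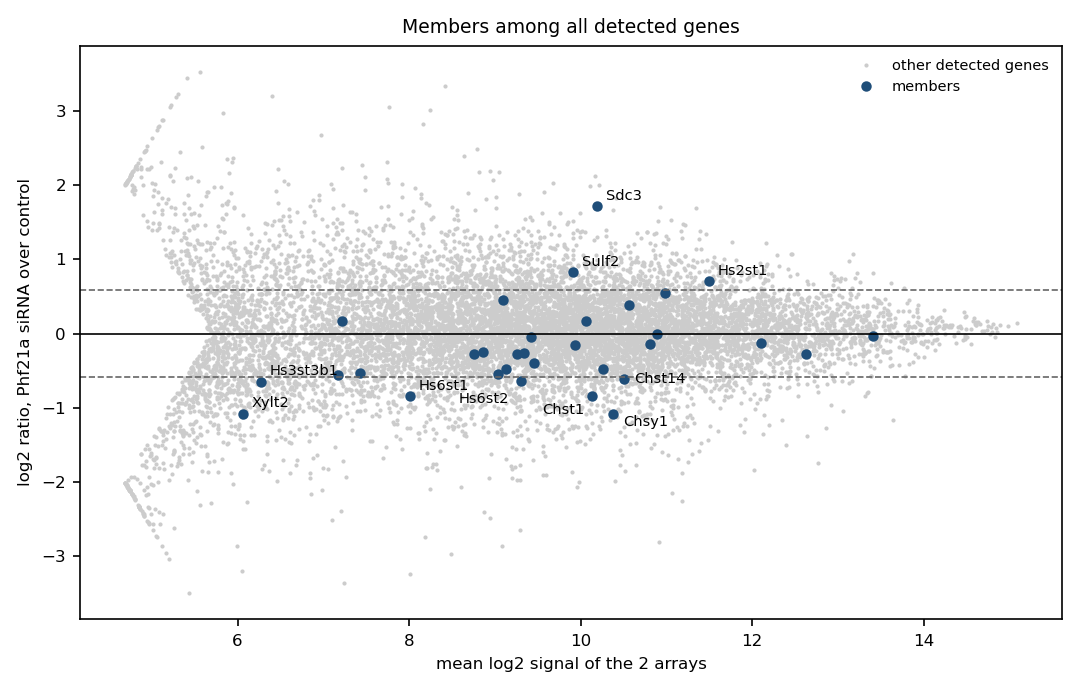
Log2 ratio (y axis) against mean log2 signal of both arrays (x axis) for all 11301 detected genes (grey) and the 32 detected members (blue), with dashed lines at 1.5-fold and names for the 10 members past it. Scatter is wide at low signal, where Xylt2 and Hs3st3b1 lie, and narrow at high signal, where Sdc3 stands clear of most genes.

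Enzymes at the head of the pathway were at or below the control level. Ugdh, which oxidises UDP-glucose to the UDP-glucuronic acid used in all these chains except keratan sulfate, had bright signals of 6940 and 5741 on its only probe set (-0.27 ± 0.32). This difference was smaller than the local spread. Xylt2, a xylosyltransferase that adds the first sugar of the chain to a serine of the core protein, had signals of 97.3 and 46.0 (-1.08 ± 0.70). The lower signal was under the detection limit, and with it raised to that limit the log2 ratio was -0.92. Xylt2 has 1 probe set here, and both signals were dim. Xylt1 had no probe set mapped to it alone, so it was not measured.

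The heparan sulfate polymerases had nearly equal signals on the arrays. Ext1, which forms the copolymerase with Ext2 and extends the chain, had 1905 on both (-0.00035 ± 0.45). Ext2 had signals of 1882 and 1713 (-0.14 ± 0.46). Extl2, a related transferase that can end a chain by acting on the linker, was at 0.18 ± 0.46 (1008 and 1138), with its other probe set at 0.36. Extl3, which adds the first glucosamine that commits the chain to heparan sulfate, was at -0.04 ± 0.54 (696 and 677), although a dimmer probe set gave -0.72 (158 and 95.8). None of the 4 brightest probe sets differed by more than its spread. Extl1 was undetected at 5.05 and 28.6.

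Enzymes that modify heparan sulfate went in both directions. Of 7 detected 5 were below 0 and below the median of all genes, and under poly-A scaling, which lowers these genes alike, all 7 were below 0. Hs2st1, which sulfates the uronic acid at its 2-O position, was 1.63-fold higher, with signals of 2267 and 3697 (0.71 ± 0.41). Of its dimmer probe sets 2 were also above 0 at 0.41 (590 and 782) and 0.56 (67.7 and 100.1), whereas the other gave -0.26 (170 and 142). The gene was higher on 3 of 4 probe sets, and only the brightest was past 1.5-fold. Under poly-A scaling it was at -0.027. Ndst2, a deacetylase and sulfotransferase that opens the chain to later modification, was at 0.45 ± 0.53 (469 and 641). Glce, the epimerase that turns glucuronic into iduronic acid, differed by less than its spread at -0.15 ± 0.47 (1034 and 930).

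The 6-O-sulfotransferases, which place sulfate on glucosamine, were both lower. Hs6st1 was 1.79-fold lower on its only probe set, with signals of 346 and 193 (-0.84 ± 0.58). Hs6st2 was 1.55-fold lower (787 and 507, -0.63 ± 0.53), and its dimmer detected probe set gave -0.97 (140 and 71.4). The enzyme that works against them, the extracellular endosulfatase Sulf2, which trims 6-O-sulfate from finished chains, was 1.78-fold higher on the probe set used (723 and 1287, 0.83 ± 0.47). Its probe sets disagreed. The brightest of them, left out of the choice because its suffix _x_at marks possible binding of other transcripts, gave 0.41 (2130 and 2825), and another gave -0.068 (560 and 534). Its direction therefore depended on the probe set. Sulf1, the other endosulfatase, was undetected, with no signal above 15.0.

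The 3-O-sulfotransferases, which add a rare late mark, were dim. Hs3st3b1 had signals of 97.2 and 62.0 (-0.65 ± 0.71), within its spread. Hs3st2 was detected on an _x_at probe set alone (208 and 144, -0.53 ± 0.61). Hs3st1, Hs3st3a1, Hs3st4 and Hs3st6 were undetected. So were Ndst3, Ndst4 and Hs6st3, which left 7 of 14 modifying genes measured. Of these 3 were at least 1.5-fold lower (13.9% of all detected genes were) and 1 higher (15.1% of all). Ndst1 had no probe set mapped to it alone and is not among the 14.

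The chondroitin and dermatan sulfate members were lower on their brightest probe sets, which was not so for 3 of 4 related genes outside the member set, given further on. All 7 detected of 12 on the array were below 0 (47.8% of all detected genes were), with a median of -0.47 and a range from -1.08 to -0.25. At least 1.5-fold lower were 2 of them (13.9% of all). All 7 were also below 0 after quantile normalization and after loess, whereas the other scalings lower these genes alike and could not change this. Chsy1, a polymerase that adds both sugars of the chondroitin chain, was 2.11-fold lower on its only probe set, with signals of 1928 and 912 (-1.08 ± 0.46). Its partners in the polymerase complex, Chpf (507 and 426, -0.25 ± 0.52) and Chpf2 (802 and 611, -0.39 ± 0.53), differed by less than their spreads. The dimmer probe set of Chpf2 was at -0.64 (142 and 91.1).

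Among the enzymes that sulfate or epimerise the chain, Chst14 was lowest. It sulfates dermatan sulfate at the 4-O position and had signals of 1793 and 1178 (-0.61 ± 0.47). Chst11 and Chst12, the chondroitin 4-O-sulfotransferases, were at -0.54 ± 0.52 (634 and 436) and -0.47 ± 0.52 (661 and 476). The dimmer probe set of Chst11 gave -0.30 (96.8 and 78.7). Dse, the epimerase that turns chondroitin into dermatan sulfate, was at -0.28 ± 0.52 (675 and 557). Each of these was lower on every detected probe set, but only Chst14 and Chst11 lay outside the local spread. Chst3 and Chst7, which sulfate chondroitin at the 6-O position, Chst13 and Chst15 were undetected, as was the polymerase Chsy3.

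Sulfotransferases of other chains were mixed. Chst1, which sulfates galactose in keratan sulfate, was 1.79-fold lower on its only probe set (1497 and 837, -0.84 ± 0.46). Chst10, which makes the HNK-1 epitope on glycoproteins, was at -0.56 ± 0.66 (174 and 118). Chst2, a glucosamine 6-O-sulfotransferase, was at 0.17 ± 0.64 (141 and 158). Chst4, Chst5, Chst8 and Chst9 were undetected.

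Has2 was the only hyaluronan synthase detected. Its brighter probe set had signals of 707 and 590 (-0.26 ± 0.53), and the other had 640 and 400 (-0.68). Both were lower, but the brighter differed by less than its spread. Has1 was undetected at 11.9 and 44.5, and Has3 at 1.11 and 1.72.

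Among the core proteins that carry heparan sulfate on the cell surface, Sdc3 stood apart by size. Sdc3 encodes a transmembrane syndecan best known from the nervous system and muscle. Its brightest probe set had signals of 645 and 2126, a 3.30-fold higher value (1.72 ± 0.47). The other probe sets were higher too, at 277 and 504 (0.86) and at 149 and 229 (0.62). Sdc3 was thus the only member whose detected probe sets were all at least 1.5-fold higher, while their sizes differed. Averaged over its 3 probe sets the log2 ratio was 1.07, and with the arrays scaled to the poly-A controls it was 0.99.

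The other syndecans did not reach 1.5-fold on their brightest probe sets. Sdc4, a syndecan of focal adhesions, had the signals 11018 and 10750 (-0.04 ± 0.29), and a much dimmer one gave 0.60 (195 and 296). Sdc1 was within its spread on each of 4 probe sets, which ranged from -0.12 to 0.12, the brightest with 4601 and 4220. Sdc2 had signals of 1679 and 2454 where brightest (0.55 ± 0.45), but its others gave -0.31 (1562 and 1260) and -0.11 (1129 and 1044). The signs for Sdc1, Sdc2 and Sdc4 therefore depended on the probe set, and averaged over probe sets all 4 syndecans were above 0.

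The glypicans, which are held to the membrane by a lipid anchor, stayed within 1.5-fold. Gpc1 was at -0.48 ± 0.47 on its only probe set (1452 and 1039). Gpc4 was at 0.38 ± 0.47 (1320 and 1722) with a dimmer probe set at 0.21. Gpc6 was at -0.28 ± 0.54 (475 and 393), and its 5 probe sets ranged from -0.28 to 0.48. Gpc2, Gpc3 and Gpc5 were undetected. Of the 3 detected glypicans 1 was above 0 and 2 were below.

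**Figure D3:**
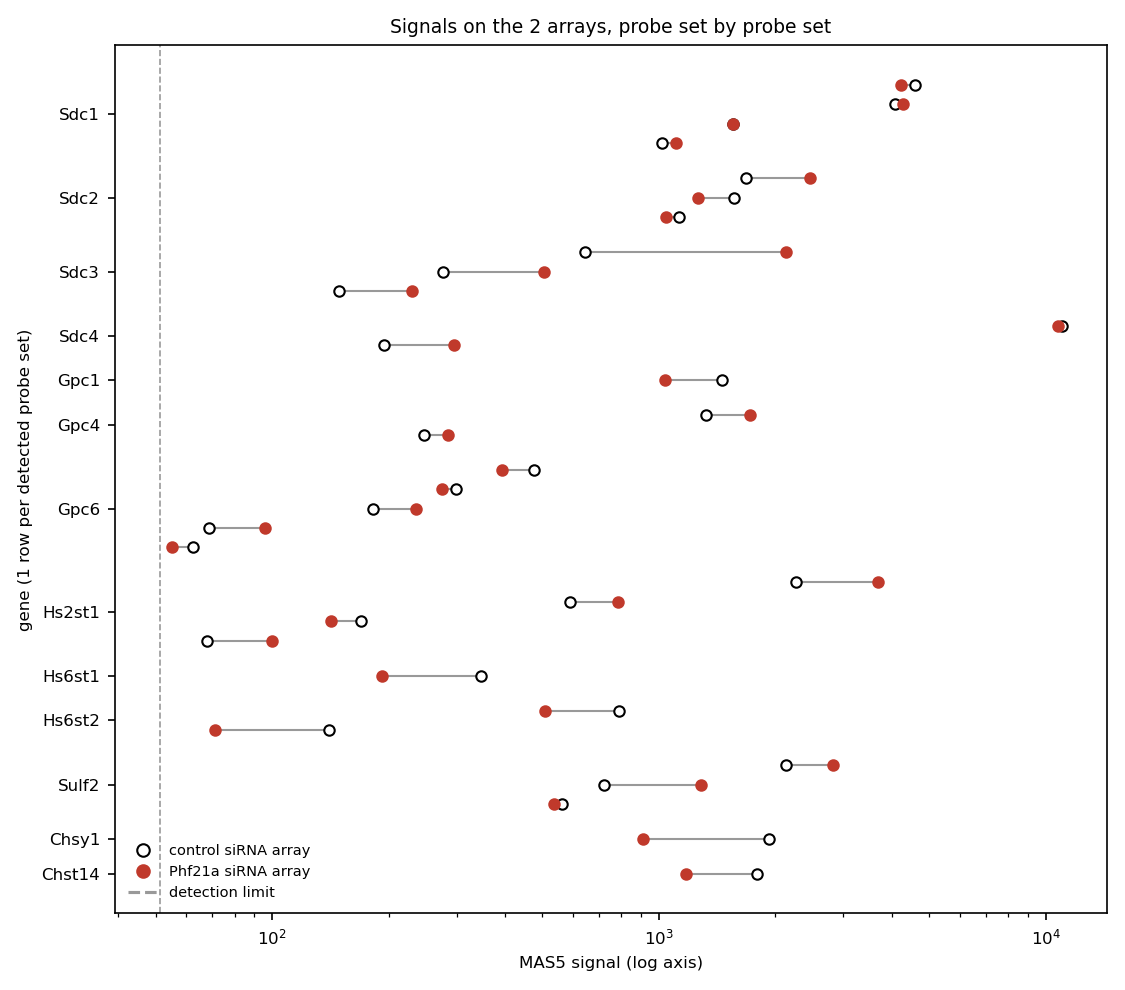
MAS5 signal (x axis, log scale) of every detected probe set of 13 members (y axis, 1 row per probe set) on the control array (open) and the Phf21a siRNA array (red), with the detection limit dashed. The 3 rows of Sdc3 all run from open on the left to red on the right, and the points of Sdc1 nearly coincide. The rows of Sdc2, Sdc4, Gpc6, Hs2st1 and Sulf2 run both ways.

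Over all members, 15 had more than 1 detected probe set. These agreed in sign in 8 genes and disagreed in 7, among them Hs2st1 and Sulf2. Of the 10 members past 1.5-fold, 6 rest on a single detected probe set (Chsy1, Chst1, Chst14, Hs6st1, Hs3st3b1 and Xylt2). Sdc3 and Hs6st2 had several in agreement. At the level of probe sets 35 of 57 lay below 0, against 10621 of all 21092 detected probe sets of 1 gene. The medians were -0.12 and -0.0033. At least 1.5-fold lower were 11 of the 57 (3395 of the 21092), and 6 were higher (2997 of the 21092). The 23 undetected members had no signal above 48.0, and among them Ndst4 (15.0 and 48.0), Hs3st6 (41.8 and 2.59) and Chst13 (42.2 and 18.8) were unequal in a range where MAS5 signals scatter widely.

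Genes that act beside the members were read from 6 lists. Of 66 such genes with a probe set of 1 gene 50 were detected, with a median log2 ratio of 0.14. At least 1.5-fold higher were 6 (15.1% of all detected genes were) and lower were 7 (13.9% of all), so these counts were near the shares over all genes. The enzymes that complete the linker between core protein and chain (B4galt7, B3galt6, B3gat3, Fam20b and Pxylp1) were all detected, with a median of 0.24, or -0.49 under poly-A scaling, and 0.22 above that of all genes under either. Pxylp1, a phosphatase acting on the linker xylose, was 1.58-fold higher (604 and 952), but its other probe set, at 0.34, was short of 1.5-fold. Csgalnact1, which adds the first galactosamine of a chondroitin chain, was 1.55-fold higher (736 and 1142, 0.63 ± 0.48), in the direction opposite to Chsy1, with its other probe set at 0.82. The 4 chondroitin partners (Csgalnact1, Csgalnact2, Ust and Dsel) had a median of 0.21, or -0.52 under poly-A and -0.013 under hybridisation scaling, and 0.19 above that of all genes under each. Dsel, a relative of the epimerase Dse, was at 0.35 ± 0.50 (758 and 965), and Ust, a uronyl 2-O-sulfotransferase, at 0.08 ± 0.60 (201 and 212). Csgalnact2, of like function, was at -0.20 ± 0.50.

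The supply of sugar nucleotides and of PAPS, the sulfate donor, was near the level of all genes, with a median of 0.10 over 14 genes (-0.63 under poly-A and -0.12 under hybridisation scaling, with all genes lowered). At least 1.5-fold lower were 2 of them (13.9% of all detected genes were), and 0 were higher (15.1% of all). Slc26a2, a sulfate transporter of the plasma membrane, was 3.56-fold lower (250 and 70.2, -1.83 ± 0.70), with its 3 probe sets from -1.83 to -1.11. Slc35b2, which carries PAPS into the Golgi, was 1.65-fold lower at -0.72 ± 0.46 (1467 and 890), but its other probe set gave 0.14. Papss1 and Papss2, which make PAPS, were at 0.15 and 0.07.

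Among genes of hyaluronan binding and turnover, Tnfaip6, a secreted hyaluronan-binding protein that transfers heavy chains onto it, was 5.24-fold lower (338 and 64.5, -2.39 ± 0.65). Hapln4 was 2.04-fold lower (257 and 126), also on a single detected probe set. Cd44, the main hyaluronan receptor, differed by less than its spread (8657 and 10275, 0.25 ± 0.29). Cemip2 (0.48) and Hyal2 (0.51), which take part in hyaluronan breakdown, did not reach 1.5-fold.

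Lysosomal enzymes that take the chains apart leaned the other way from the synthesis genes. The median of the 9 detected was 0.47, or -0.26 under poly-A scaling, and 0.44 above that of all genes under either. At least 1.5-fold higher were 4 of them (15.1% of all), and 0 were lower (13.9% of all). Hexa, a hexosaminidase subunit, was 2.54-fold higher on its only detected probe set (1763 and 4480). Idua, which removes iduronic acid, was 2.23-fold higher (150 and 334), but its other probe set, at 0.56, was short of 1.5-fold. Naglu and Gusb were at 0.93 ± 0.58 and 0.77 ± 0.41. Among other core proteins 3 of 10 were at least 1.5-fold lower (13.9% of all), namely Dcn, Col18a1 and Vcan, and 0 were higher (15.1% of all). Dcn, the small dermatan sulfate proteoglycan decorin, was 5.72-fold lower (329 and 57.5, -2.51 ± 0.68), and Col18a1, a basement membrane collagen with heparan sulfate chains, was 3.52-fold lower (552 and 157). Vcan, the large chondroitin sulfate proteoglycan versican, had signals of 11264 and 7113 (-0.66 ± 0.29) with 6 probe sets from -0.68 to 0.05.

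**Figure D4:**
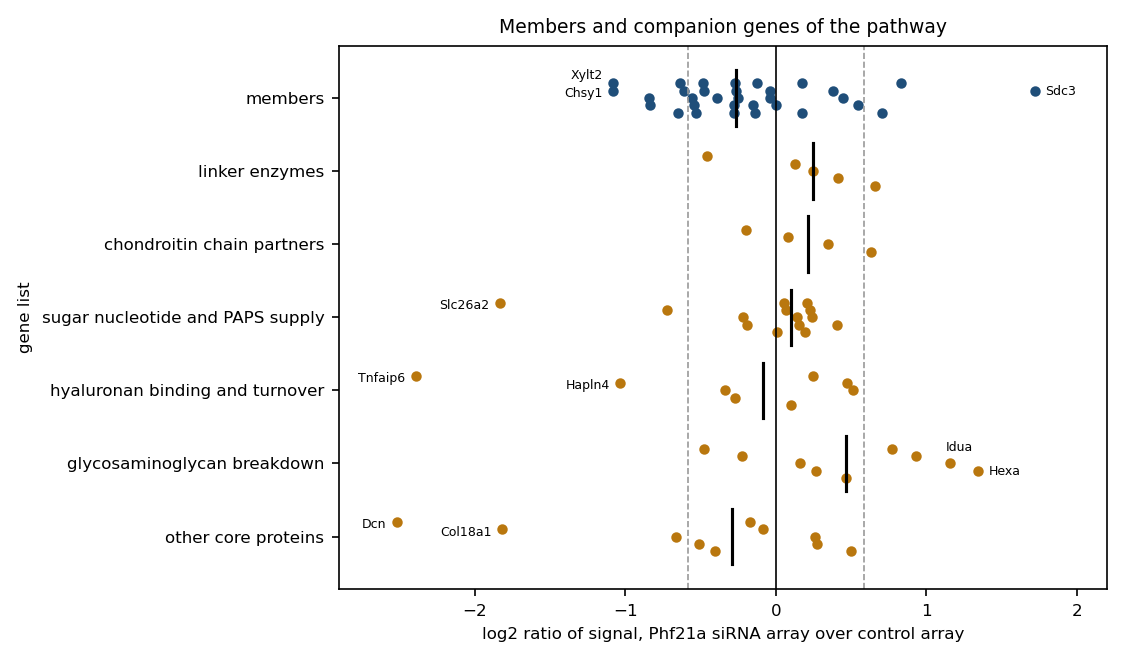
Log2 ratio (x axis) of each detected gene in the member set and in 6 lists of companion genes (y axis); black bars are list medians, dashed lines mark 1.5-fold, and genes at least 2-fold apart are named. The medians lie at -0.27 for the members and 0.47 for glycosaminoglycan breakdown.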

How the data were processed

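Total RNA (1 ug) was labelled for 1 Affymetrix array per group, and this number of arrays limits the precision. The authors deposited linear intensity values (signals), computed with MAS5 per the submitters' processing notes, in a version not given in the sources used here. The mean of each array without its lowest and highest 2% of probe sets was 500.003, so a change in total RNA per cell could not be seen.

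Of 45101 probe sets 34945 mapped to 1 gene, 932 to several, 9160 to none and 64 were controls; 3 probe sets that name a member beside another gene were left out. All 55 member symbols matched a gene table by Entrez number. Signals were raised to a floor of 12.9 (25th percentile) before log2 was taken, and no fold is given for a signal under it. The detection limit was 51.3 (median). The brightest probe set was that of highest mean log2 signal, leaving out _x_at where another was detected. The local spread is 0.5 times the gap from the 16th to the 84th percentile.

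Members, gene lists and settings were chosen with earlier results of these data known. All detected members were named, and companion genes mainly where they differed by 2-fold; the others were chosen after their values were seen. Alternatives were 5 scalings, 2 treatments of low signals, 3 choices of probe set, 2 detection limits and folds of 2 and 3. The procedure was checked on simulated data. Python 3.11.15, numpy 2.4.6, pandas 2.3.3, statsmodels 0.14.6 and matplotlib 3.10.9 were used.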

Additional observations from a re-analysis of the deposited data

How the results depend on the processing

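No paired analysis was possible because each group held 1 array, and for the same reason no array could be left out. The counts of 3 higher and 7 lower members became 1 and 2 at 2-fold (5.66% and 5.44% of all detected genes). At 3-fold they were 1 and 0, where the shares over all genes were not computed. Scaling to the poly-A controls gave 1 higher and 24 lower with a median log2 ratio of -1.0, while 59.2% of all genes were lower, and put Hs2st1 at -0.027. Scaling to the hybridisation controls gave 13 lower (23.3% of all genes were) and a median of -0.49. The mean over probe sets left 1 higher (13.9% of all genes were). The stricter detection limit (461, which fewer genes pass) left 4 of 26 members lower (10.1% of all genes were). With no detection limit 11 were higher (14.2% of all genes were) and 12 lower (15.7% of all), with a median of -0.15 over 55 members. Sulf2 was at -0.068 without suffixed probe sets, and also on its second-brightest probe set when _x_at was ranked last. Both values come from the dimmest of its 3 probe sets. The cause of these differences was not tested, beyond the fewer or added genes and the shift of all genes that the settings make. Of 375 values of single members under these alternatives, 19 had the opposite sign, 6 of them under poly-A scaling, 2 under hybridisation scaling and 11 under other choices of probe set or detection limit. The 3 among members past 1.5-fold are those of Hs2st1 and Sulf2 above. Besides these 3, 40 values moved by at least the local spread, 31 of them under poly-A scaling. Hs2st1 and Sulf2 were past 1.5-fold in 8 of 12 alternatives. Chsy1, Chst1 and Chst14 have 1 probe set, so the choice of probe set could not move them. Low signal limits Xylt2 and Hs3st3b1 most.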

Other observations

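Probe sets of companion genes also disagreed in places. Arsb, a sulfatase of chondroitin and dermatan breakdown, was at -0.48 (1234 and 886) where brightest, while another of its probe sets gave 0.70. Gfpt1, the first enzyme of the route to UDP-N-acetylglucosamine, was at 0.01 with 4 probe sets from -1.15 to 0.40. Uap1, later in the same route, was at 0.14 with 5 probe sets from -0.86 to 0.14.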
